A study of Homo sapiens with 5 samples.

Results

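The library made 48 hours after an siRNA against SET (siSET) was compared with the library made 48 hours after a control siRNA (siNT), 2 of the 5 libraries of the series. For each gene the most highly counted transcript (by its mean over all libraries) was used, and genes whose mean over siSET and siNT was at least 50 scaled counts were compared, which were 6084 of the 10596 genes in the table. Scaled counts are read counts that the authors had put on a common scale. A difference is log2(siSET + 1) minus log2(siNT + 1), negative where siSET was lower, and values in brackets are its 95% exact counting interval. Because each group is 1 library, no difference has a replicate check, no test between conditions exists, and the intervals cover counting error only.

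SET is a nuclear and cytoplasmic protein that binds and inhibits protein phosphatase 2A (PP2A), the main serine/threonine phosphatase that removes phosphates from kinases such as AKT and ERK and from the transcription factor MYC. It is also a histone chaperone, a subunit of the complex that shields histone tails from acetylation, and it belongs to a family of acidic proteins that hand histones to DNA. PP2A is a trimer of a scaffold, a catalytic and a variable regulatory subunit, and the lipid ceramide can bind SET and relieve its block of PP2A.

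The cells were MDA-MB-231, an established triple-negative breast cancer line with mesenchymal features, grown in IMDM with 5% FBS. Besides siSET and siNT the series holds a library of cells given PBS for 12 hours (PBS), a library after an siRNA against CIP2A, another PP2A inhibitor (siCIP2A, 48 hours by the treatment protocol, though its own label gives no time), and a library after 1 µM OP449, a SET antagonist, for 12 hours (OP449). The PBS library served here to see whether siNT itself stood apart. It differs from siNT in time and in having had no siRNA, so a gap between the controls may come from time or from the siRNA procedure, which cannot be told apart. The siRNA sequences were not used here. Genes of chromosome 1, part of chromosome 2 and chromosomes 10 to 19 were analysed, and SET and CIP2A themselves, and so the silencing, were not analysed here. The recovered reads over the gene table came to 3641329 in siSET, the shallowest library, 5250308 in siNT, and 4762701 to 5602224 in the others. The 9 mesenchymal markers in the table summed to 73691 scaled counts in siNT and 70643 in siSET. Of the 7 with a mean of at least 50, 5 were above siNT, against 52.1% of all genes compared. In siNT and siSET VIM stood at 15669.7 and 16658 scaled counts and AXL at 17203 and 18128. TIMP2 stood at 10905.5 and 12901.7, CDH11 at 1309.6 and 1657.6 and ZEB1 at 761 and 908. CD44 (18572 and 13820.3) and PLAU (9249.9 and 6560.3) were lower in siSET. CDH2 was at 20.1 and 8.55, and THY1 was listed at 0. The 18 epithelial markers in the table summed to 22675 in siNT and 23290.5 in siSET, mostly from keratins, of which KRT19 was at 5584 and 5998, KRT7 at 4898 and 4715 and KRT8 at 3439 and 4793. ERBB2 was at 1049 and 1179 and CDH1 at 27.3 and 25.7, and PGR, KRT5 and KRT14 were listed at 0 in every library. Of 16 immune and endothelial markers in the table, 1, the lysosomal protein CD68, reached 50 scaled counts in any library, and 7 were at 0 in both siNT and siSET.

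Between siSET and siNT 24 genes were at least 2-fold higher, 0.394% of those compared, and 48 were at least 2-fold lower, 0.789%. At 1.5-fold there were 173 higher genes, 2.84%, and 262 lower genes, 4.31%. The median difference over all 6084 genes was 0.012, with 52.1% of genes above siNT and 47.9% below, close to an even split. The counting interval lay above 0 for 19.8% of genes and below 0 for 19.8%. In bulk RNA fewer cells with a transcript and less of it per cell cannot be told apart. Lower genes also outnumbered higher ones where counting was deep. Among the 3003 genes with a mean of at least 500, 83 were at least 1.5-fold lower (2.76%) and 32 at least 1.5-fold higher (1.07%). Among the 672 genes with a mean of at least 2000, 16 were lower (2.38%) and 10 higher (1.49%). Just inside the 1.5-fold line among the 3003 genes lay TET3 (-0.59) and ITGB1 (0.60), and just outside it CBL (-0.58) and ABCC4 (0.58).

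**Figure D1:**
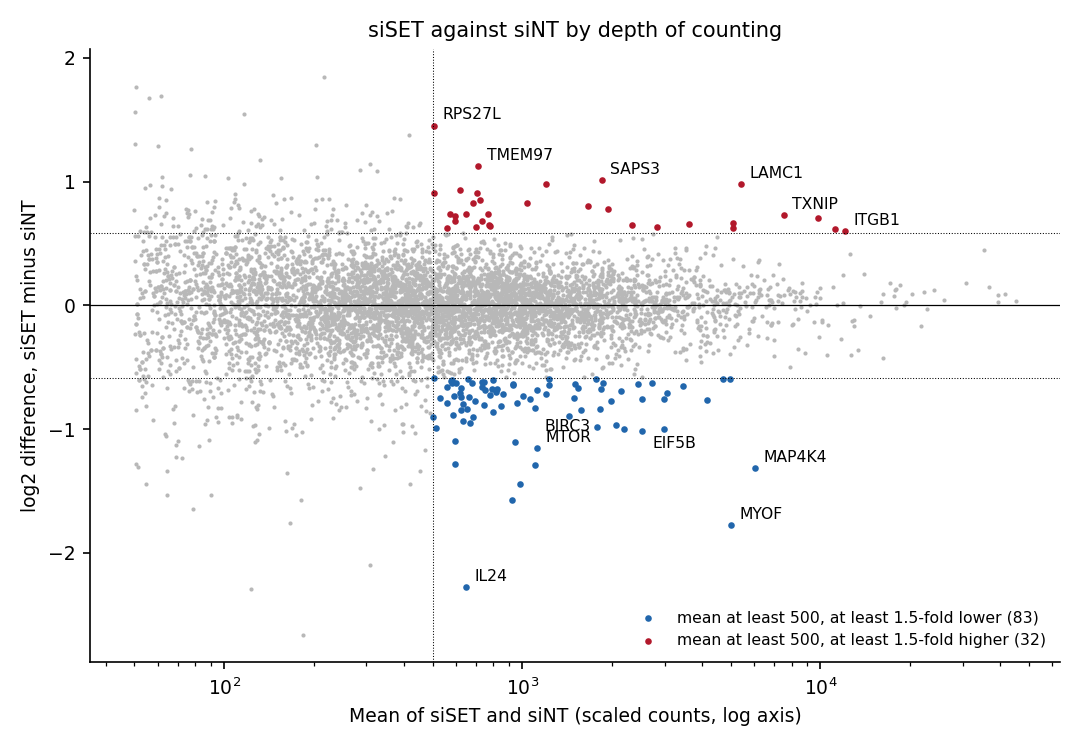
The difference between siSET and siNT (y axis, log2) against the mean of both libraries (x axis, scaled counts, log axis), 1 point per gene with a mean of at least 50. Dotted lines mark 1.5-fold and a mean of 500, and past both lie 83 lower genes in blue and 32 higher genes in red.

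The lower and the higher genes stood differently against PBS. Of the 83 deeply counted lower genes, 43 were at least 1.5-fold below PBS as well, so that 1.43% of the 3003 genes were below both controls. Of the 32 higher genes, 5 were at least 1.5-fold above PBS too, 0.167% of the 3003. For 30 of those 32 genes siNT was below PBS, by 1.5-fold or more for 8, and the median of siNT minus PBS over the 32 was -0.37. For 67 of the 83 lower genes siNT was above PBS, by 1.5-fold or more for 12, with a median of 0.19. Genes chosen by their ratio to siNT favour those in which siNT departs from PBS, so these counts describe the genes and do not judge siNT. Over all 3003 genes, siNT was at least 1.5-fold above PBS for 22 and below for 17, and the SD of the differences was 0.20 between the controls and 0.26 between siSET and siNT.

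A stricter view asked in which library a gene lay at least 1.5-fold beyond all 4 others. In siSET 27 of the 3003 genes lay below the other 4 libraries and 3 above them. The counts were 4 and 1 in siNT, 1 and 0 in PBS, 9 and 4 in OP449, and 21 and 3 in siCIP2A. The genes were selected on the mean of siSET and siNT, which favours neither direction between those but does not treat the other libraries alike.

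**Figure D2:**
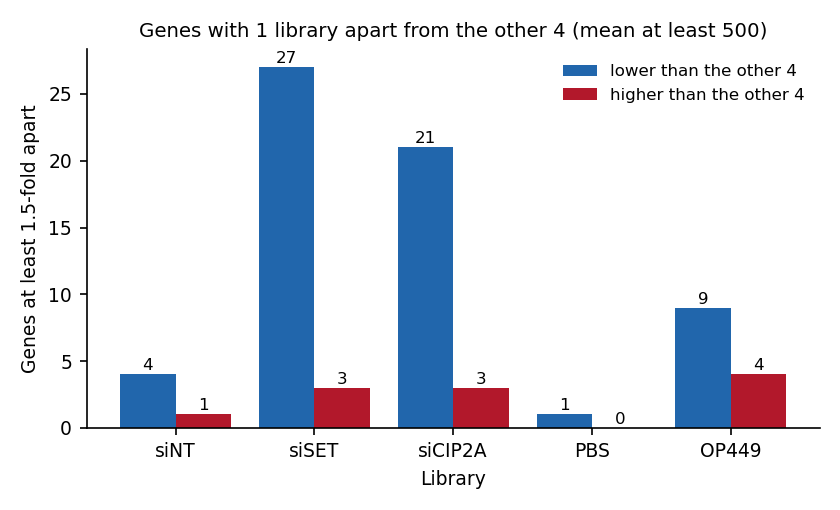
Number of genes (y axis) for which the library named on the x axis was at least 1.5-fold below (blue) or above (red) each of the other 4, among 3003 genes whose siSET and siNT values averaged at least 500. siSET had 27 genes below and 3 above, and siNT 4 and 1.

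The lowest deeply counted genes in siSET encode proteins of many kinds, membrane, secreted, cytosolic and nuclear. MYOF, which encodes myoferlin, a ferlin that fuses membrane patches and helps to recycle growth factor receptors, had 7779 scaled counts in siNT, 7224 in PBS, 8996 in siCIP2A, 6713 in OP449 and 2270.0 in siSET. The other 4 libraries lay close together and siSET stood 3.43-fold below siNT, a difference of -1.78 [-1.86 to -1.69]. KIAA0494, now named EFCAB14, had 643 scaled counts in siSET against 1339.9 to 1855 in the other libraries, at -1.29 [-1.46 to -1.12]. On hg19 the transcript of MYOF spans chromosome 10 from 95066187 to 95242074.

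MTOR and EIF5B, which act in growth control and translation, were also among the lowest 15. MTOR, the kinase that couples amino acids and growth factors to protein synthesis and to lysosomal function, had 1548 scaled counts in siNT, 1329 in PBS, 1363 in siCIP2A, 1459.6 in OP449 and 696 in siSET. The siSET library was 2.22-fold below siNT, at -1.15 [-1.32 to -0.99], and below every other library. EIF5B, the GTPase that joins the ribosomal subunits at the start codon, had 3365 scaled counts in siNT, 3298 in PBS, 3713 in siCIP2A, 3811 in OP449 and 1664 in siSET. The controls were close for EIF5B, at 0.029 for siNT minus PBS, and siSET stood at -1.01 [-1.12 to -0.91]. The MTOR transcript spans chromosome 1 from 11166589 to 11322608 and that of EIF5B chromosome 2 from 99953834 to 100016726. The wider lists these genes belong to did not share the size of their differences. Over 40 genes of the PI3K, AKT and mTOR pathway the median difference was 0.0036, and over 40 translation factors it was 0.014. Of the translation factors 3 were at least 1.5-fold lower, against 4.31% of all genes, and 0 higher by as much, against 2.84%.

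Kinases and a kinase scaffold were among the lowest 15 too. MAP4K4, which links tumour necrosis factor and integrin signals to JNK, had 8629 scaled counts in siNT, 6193 in PBS, 6161 in siCIP2A, 5648 in OP449 and 3464 in siSET. Here siNT was itself the highest library, and siSET stood at -1.32 [-1.39 to -1.245] against siNT and -0.84 against PBS. NEK7, needed for spindle assembly and for the NLRP3 inflammasome, had 1292 scaled counts in siNT, 1197 in PBS, 1113 in siCIP2A, 1427 in OP449 and 600.4 in siSET, and its difference was -1.10 [-1.28 to -0.93]. DCAF7, a scaffold of the DYRK and HIPK kinases, had 3969 scaled counts in siNT, 3674 in PBS, 3589 in siCIP2A, 3706 in OP449 and 1984 in siSET. Its 4 other libraries lay within a narrow band, and siSET was at -0.9997 [-1.10 to -0.90].

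Nuclear proteins among the lowest 15 included ANP32E and POU2F2. ANP32E, an acidic chaperone that removes the histone variant H2A.Z and shares its family with ANP32A, a known partner of SET, had 2359.6 scaled counts in siNT, 2553 in PBS, 1615 in siCIP2A, 2766 in OP449 and 1192 in siSET, a difference of -0.98 [-1.11 to -0.86]. The siCIP2A library was the next lowest for ANP32E. POU2F2, the octamer-binding transcription factor OCT2 known from B cells, had 841 scaled counts in siNT, 665 in PBS, 724 in siCIP2A, 595 in OP449 and 346 in siSET, at -1.28 [-1.52 to -1.06]. Its 5 levels were spread widely and siSET was the lowest. Secreted proteins at this end included IL24, the lowest of all deeply counted genes (-2.28 [-2.56 to -2.02], 1074 scaled counts in siNT, 605 in PBS and 221 in siSET), NOG, a BMP antagonist (-1.58 [-1.77 to -1.39], 1379 scaled counts in siNT, 908 in PBS and 462 in siSET), and ADAMTS14, a procollagen N-propeptidase (-1.09 [-1.32 to -0.88], 808 scaled counts in siNT, 416 in PBS and 378 in siSET). For these siNT was the higher of both controls, and ADAMTS14 stood at -0.14 against PBS. TMEM132A, a membrane protein of the secretory pathway, was likewise at -1.003 against siNT and -0.43 against PBS.

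**Figure D3:**
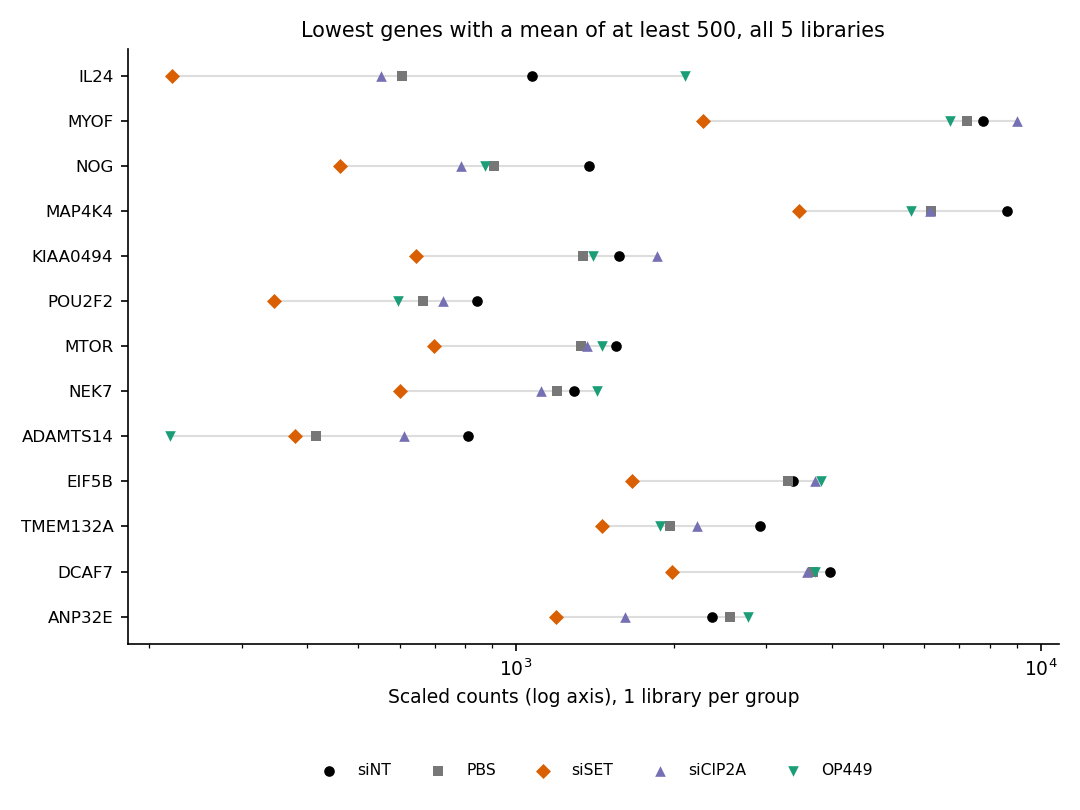
Scaled counts (x axis, log axis) in each of the 5 libraries for 13 of the 15 genes with the lowest difference between siSET and siNT among those with a mean of at least 500, 1 point per library. siSET (orange diamonds) is the lowest library for each gene except ADAMTS14, where OP449 is lower.

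With a mean of at least 2000, the lowest genes after MYOF, MAP4K4, EIF5B, TMEM132A and DCAF7 were BIRC3, TNFAIP2, SERPINA1, DRAP1 and GHITM. DRAP1, a corepressor that with DR1 blocks assembly of the RNA polymerase II initiation complex, had 3749 scaled counts in siNT, 3545 in PBS, 3086 in siCIP2A, 3927 in OP449 and 2215 in siSET, at -0.76 [-0.85 to -0.67]. GHITM, a mitochondrial inner membrane protein that shapes cristae, had 3779 scaled counts in siNT, 3899 in PBS, 3797 in siCIP2A, 4085 in OP449 and 2316 in siSET, at -0.71 [-0.80 to -0.61], with the other 4 libraries close to one another. SERPINA1, the protease inhibitor alpha-1-antitrypsin, had 3173 scaled counts in siNT, 2411 in PBS and 1873 in siSET, at -0.76 [-0.86 to -0.66], with siNT the higher control. Further genes that siSET had below all 4 other libraries, named here after their values were seen, were the elongation factor partner IWS1 (-0.88), the ribosome maturation and coregulator protein PELP1 (-0.90), the endoplasmic reticulum thioredoxin TMX1 (-0.76), the stress sensor ATF6 (-0.93), the splicing-linked phosphatase PPM1G (-0.69) and the glycosyltransferase B3GALNT2 (-0.80). PPM1G had 2648 scaled counts in siNT, 3404 in PBS, 2896 in siCIP2A, 3558 in OP449 and 1642 in siSET, and its gap to PBS (-1.05) was larger than that to siNT.

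The 15 highest deeply counted genes in siSET also encode proteins of many kinds, and RPS27L, TMEM97 and SAPS3 led them. LAMC1, the gamma-1 chain found in most laminins of basement membranes, had 3635 scaled counts in siNT, 4973 in PBS, 5661 in siCIP2A, 5134 in OP449 and 7176 in siSET. It was 1.97-fold above siNT, at 0.98 [0.91 to 1.05], and above PBS by 0.53, with siNT the lowest library. BDNF, a neurotrophin, had 514 scaled counts in siNT, 617 in PBS, 448 in siCIP2A, 415 in OP449 and 927 in siSET, at 0.85 [0.67 to 1.04], and PBXIP1, a microtubule-bound partner of the oestrogen receptors, had 576 scaled counts in siNT, 549.8 in PBS, 538 in siCIP2A, 468 in OP449 and 963 in siSET, at 0.74 [0.56 to 0.92]. For both of these siSET was the highest library, and for PBXIP1 the other 4 lay close together. SGPL1, the lyase that irreversibly degrades sphingosine-1-phosphate, had 744 scaled counts in siNT, 983 in PBS, 1074 in siCIP2A, 947 in OP449 and 1322 in siSET, at 0.83 [0.68 to 0.98]. LIPA, the acid lipase that frees cholesterol and fatty acids in lysosomes, had 1430.4 scaled counts in siNT, 1756 in PBS, 1569 in siCIP2A, 1564 in OP449 and 2448 in siSET, at 0.77 [0.66 to 0.89]. Both enzymes were highest in siSET, with siNT the lowest library.

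UCP2, a carrier of the mitochondrial inner membrane, had 489 scaled counts in siNT, 637 in PBS, 494 in siCIP2A, 447 in OP449 and 919 in siSET, at 0.91 [0.72 to 1.10]. ALDH3B1, an aldehyde dehydrogenase, had 491 scaled counts in siNT, 625 in PBS, 854 in siCIP2A, 434 in OP449 and 872 in siSET, at 0.83 [0.64 to 1.02], with siCIP2A nearly level with siSET. RBM14, an RNA-binding coactivator found in paraspeckles, had 1208 scaled counts in siNT, 1502 in PBS, 998 in siCIP2A, 1139 in OP449 and 2111 in siSET, at 0.81 [0.68 to 0.93]. MARCKSL1, an actin-binding protein, had 351 scaled counts in siNT, 478 in PBS and 660.3 in siSET, at 0.91 [0.69 to 1.14]. In these genes siSET exceeded both controls, though PBS lay between siNT and siSET.

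In several of the highest genes siNT was the lowest library and siSET was at or nearer to the level of PBS. SAPS3, now named PPP6R3, a regulatory subunit of the PP2A-related phosphatase PP6, had 1224 scaled counts in siNT, 2458 in PBS, 1995 in siCIP2A, 2604 in OP449 and 2465 in siSET. The difference from siNT was 1.01 [0.89 to 1.13] and that from PBS 0.0044. RPS27L, a ribosomal protein relative and p53 target, had 270.2 scaled counts in siNT, 571 in PBS, 573 in siCIP2A, 472 in OP449 and 741 in siSET, and TMEM97, the sigma-2 receptor of cholesterol traffic, had 448 scaled counts in siNT, 857 in PBS, 528 in siCIP2A, 828 in OP449 and 977 in siSET. CYB5B, a cytochrome b5 of the mitochondrial outer membrane, stood at 0.98 against siNT and 0.12 against PBS, TXNDC12, an oxidoreductase of the endoplasmic reticulum, at 0.94 and 0.20, and the mitotic brake kinase WEE1 at 0.74 and 0.024. In all 6 of these genes siNT was the lowest of the 5 libraries, and RPS27L stood at 1.45 against siNT and 0.37 against PBS.

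**Figure D4:**
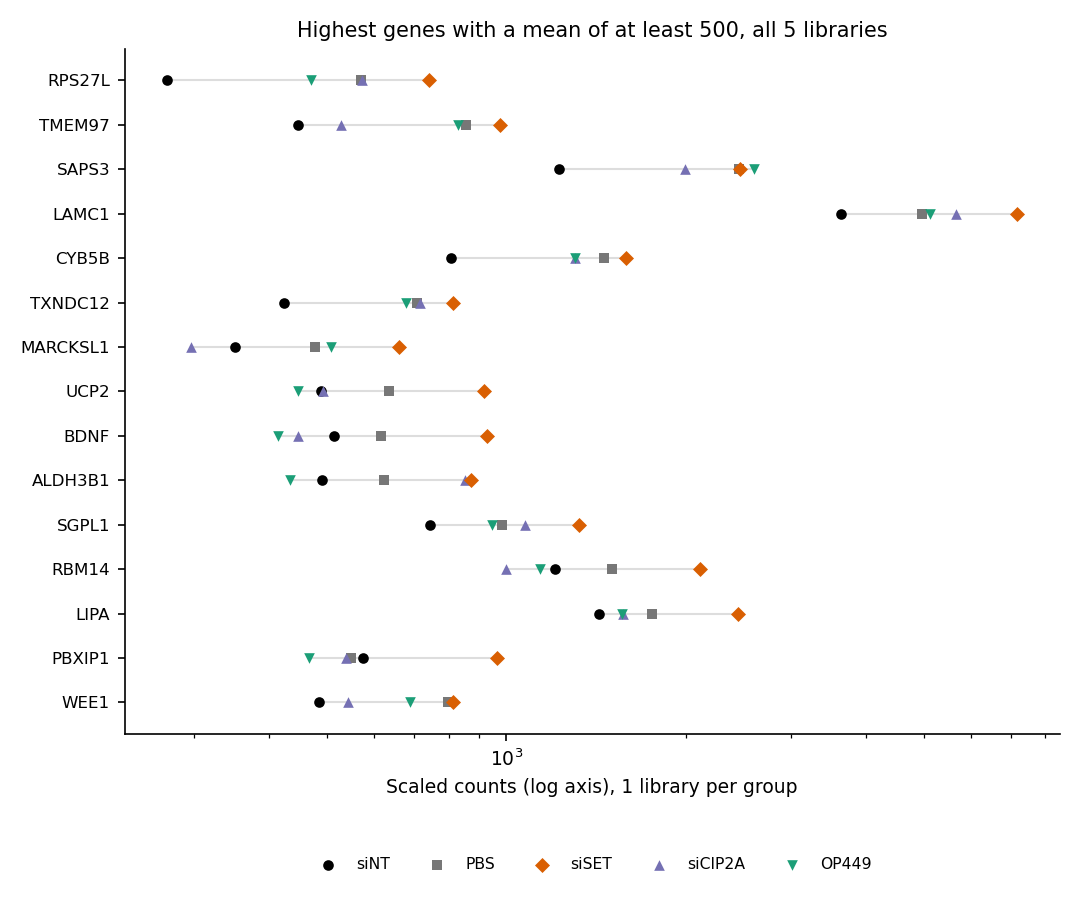
Scaled counts (x axis, log axis) in each of the 5 libraries for the 15 genes with the highest difference between siSET and siNT among those with a mean of at least 500, 1 point per library. For SAPS3 siSET (2465) and PBS (2458) nearly coincide while siNT is at 1224, whereas for PBXIP1 siSET (963) is above all 4 others.

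With a mean of at least 2000, the highest genes after LAMC1 were TXNIP, PTRF, CNN3, TEAD1, FRMD6, GPRC5A, HIF1A, SCD and ITGB1. TXNIP, an inhibitor of thioredoxin and of glucose uptake, had 5662 scaled counts in siNT, 6176 in PBS, 9826 in siCIP2A, 10189 in OP449 and 9388 in siSET, at 0.73 [0.67 to 0.79], and was higher still in siCIP2A and OP449. ITGB1, the beta subunit shared by most laminin and collagen receptors, had 9579 scaled counts in siNT, 10709 in PBS, 12138 in siCIP2A, 10385 in OP449 and 14535 in siSET, at 0.60 [0.56 to 0.65], with siSET the highest library. HIF1A, the oxygen-regulated transcription factor, had 4018 scaled counts in siNT, 4531 in PBS, 4683 in siCIP2A, 5272 in OP449 and 6194 in siSET, at 0.62 [0.56 to 0.69]. TEAD1, the DNA-binding partner of YAP, had 2819 scaled counts in siNT, 3616 in PBS and 4448 in siSET, at 0.66 [0.58 to 0.74], FRMD6, an upstream member of the Hippo pathway, had 1814 scaled counts in siNT, 1894 in PBS and 2848 in siSET, at 0.65 [0.55 to 0.75], and CNN3, a calponin that binds actin, had 3929 scaled counts in siNT, 5189 in PBS and 6228 in siSET, at 0.66 [0.60 to 0.73]. Of these, FRMD6 had close controls and was higher in siSET than in any other library. GPRC5A, an orphan receptor induced by retinoic acid, did the same, with 2226 scaled counts in siNT, 2305 in PBS, 2035 in siCIP2A, 1922 in OP449 and 3449 in siSET, at 0.63 [0.54 to 0.72]. PTRF, now named CAVIN1, which coats caveolae, stood at 0.71 against siNT and 0.052 against PBS, and SCD, the stearoyl-CoA desaturase, at 0.62 and -0.12. KIAA1199, now named CEMIP, a hyaluronan-degrading protein named here after its values were seen, missed the 1.5-fold line against siNT (0.55) and had the widest gap to PBS of these genes (1.20), with 3647 scaled counts in siNT, 2322 in PBS, 2479 in siCIP2A, 2226 in OP449 and 5334 in siSET.

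Functions were then described by 87 lists of genes, by how many members past the floor lay above or below siNT and by their median, beside the median of 0.012 over all genes. The lists were written with earlier results of these data known, so their counts are descriptions and not independent support. The most one-sided list was that of NF-kB and inflammatory cytokine genes, of which 20 of 20 members were below siNT, against 47.9% of all genes, 9 by at least 1.5-fold, against 4.31% of all genes, with a median of -0.37. The cytokine IL18, which was higher in siSET than in siNT, is counted with the cytokine receptors below and not here. Against PBS 18 of the 20 were lower, with a median of -0.36, and siNT was above PBS by a median of 0.13. The cytokines IL1B and CSF3 were higher in siNT than in PBS. IL1B had 175 scaled counts in siNT, 75.9 in PBS and 82.1 in siSET, and CSF3 had 319 scaled counts in siNT, 69.1 in PBS and 49.6 in siSET, so that siSET was far nearer to PBS than to siNT for both. For other members siSET was below both controls. CHUK, which encodes the kinase IKK-alpha that phosphorylates the NF-kB inhibitors, had 651 scaled counts in siNT, 620.1 in PBS, 569 in siCIP2A, 678 in OP449 and 289 in siSET, at -1.17 [-1.43 to -0.92] against siNT and -1.10 against PBS. BIRC3, the ubiquitin ligase cIAP2 and a direct NF-kB target, had 2721 scaled counts in siNT, 2501 in PBS, 1098 in siCIP2A, 2780.1 in OP449 and 1392 in siSET, at -0.97 [-1.08 to -0.85], with siCIP2A lower still. TNFAIP2, induced by tumour necrosis factor, had 5238 scaled counts in siNT, 4343 in PBS and 3091 in siSET, at -0.76 [-0.84 to -0.68]. ICAM1, the leukocyte adhesion molecule, had 2969.9 scaled counts in siNT, 2694 in PBS and 1914 in siSET, at -0.63 [-0.74 to -0.53].

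The promoter of BIRC3 is shown because it holds the motif that this family of factors binds. It is the RefSeq window from 250 bases before to 50 after the start, on GRCh38.p14, chr11:102317234-102317533, plus strand, with the 2 matches to the NF-kB consensus in capitals, the first beginning 199 bases before the start and the second 135.
BIRC3: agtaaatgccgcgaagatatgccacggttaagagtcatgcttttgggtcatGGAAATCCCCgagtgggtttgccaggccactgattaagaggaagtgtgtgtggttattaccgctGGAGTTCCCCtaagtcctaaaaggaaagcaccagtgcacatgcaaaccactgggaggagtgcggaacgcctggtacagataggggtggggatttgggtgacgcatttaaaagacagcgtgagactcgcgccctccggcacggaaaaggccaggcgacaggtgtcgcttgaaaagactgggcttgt
Of the 20 list members 16 had a promoter in the table of sequences, and 3 of these (18.8%) held a match on either strand, against 6.51% of 5194 promoters of genes past the floor and 5.72% of all 27305 promoters. The 3 were BIRC3, BCL3 and MAP3K8. All 16 were below siNT, the 3 with a match by a median of -0.29 and the 13 without one by the larger median of -0.63. A match is a string of letters in this window and says nothing of binding.

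Receptors and cell death genes around this pathway were mixed. Of 21 cytokine receptor and signalling genes 12 were below siNT, with a median of -0.037. The feedback inhibitor SOCS1 stood at -0.80, the receptor gene IL1R1 at -0.76 against siNT but 0.028 against PBS, STAT3 at -0.41, and the cytokine IL18 at 0.66. Of 19 tumour necrosis factor receptor family genes 11 were below siNT, with a median of -0.098. The receptors TNFRSF19 (-1.31) and TNFRSF11A (-0.94), the latter known as RANK, were lower than both controls. In the list of 40 BCL2 family and apoptosis genes 5 were at least 1.5-fold lower (4.31% of all genes) and 1 higher (2.84% of all genes), with a median of -0.053. APAF1, the core of the apoptosome, had 525 scaled counts in siNT, 678 in PBS, 537 in siCIP2A, 576 in OP449 and 270.3 in siSET, at -0.96 [-1.23 to -0.69], and siSET was by far its lowest library. The BH3-only gene PMAIP1, also called NOXA, had 2499 scaled counts in siNT, 1851 in PBS and 1459 in siSET, at -0.78 [-0.89 to -0.66]. Of 34 p53 target genes 24 were below siNT, against 47.9% of all genes, with a median of -0.068. The highest were RPS27L and KITLG, the ligand of the receptor KIT, at 1.14 [0.85 to 1.44]. MDA-MB-231 cells carry mutant p53.

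Most stress response genes listed under ATF4 lay below siNT in siSET. ATF4 is the transcription factor that cells make when eIF2-alpha is phosphorylated, and its targets supply amino acids and charged tRNAs. Of 35 genes of the ATF4 and amino acid response 27 were below siNT, against 47.9% of all genes, with a median of -0.16. At least 1.5-fold lower were 8 (against 4.31% of all genes), and 0 were above by as much (against 2.84%). This list was further below PBS, with 29 of 35 lower and a median of -0.31, and siNT minus PBS was -0.076. PPP1R15A, also called GADD34, the subunit that directs protein phosphatase 1 to eIF2-alpha, had 2328 scaled counts in siNT, 2156 in PBS, 3613 in siCIP2A, 3249 in OP449 and 1305 in siSET, at -0.83 [-0.96 to -0.71]. CARS, which charges cysteine tRNA, had 1259.8 scaled counts in siNT, 1152 in PBS, 1175 in siCIP2A, 1217 in OP449 and 756 in siSET, at -0.74 [-0.90 to -0.58]. In both siSET was the lowest library. The transsulfuration enzyme CTH (-0.77 [-1.15 to -0.41]), the stress cytokine GDF15 (-0.70 [-1.27 to -0.15]) and the factor ATF3 (-0.64 [-1.17 to -0.15]) were lower at smaller depth. CHAC1, which degrades glutathione, had 75.8 scaled counts in siNT, 47.6 in PBS and 39.3 in siSET, at -0.93 [-1.702 to -0.24].

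The promoter of CHAC1 is shown for the element that ATF4 binds, which reads TGATGNAA on one strand. The window is chr15:40953221-40953520 on GRCh38.p14, plus strand, from RefSeq, and the capitals mark the single match, read on the other strand and beginning 209 bases before the start.
CHAC1: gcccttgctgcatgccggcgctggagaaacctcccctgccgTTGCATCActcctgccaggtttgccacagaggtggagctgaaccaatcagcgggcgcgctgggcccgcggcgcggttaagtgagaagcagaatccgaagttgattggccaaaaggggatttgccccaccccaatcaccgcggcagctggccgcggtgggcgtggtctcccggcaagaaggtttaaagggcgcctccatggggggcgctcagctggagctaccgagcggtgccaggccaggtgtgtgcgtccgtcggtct
Of 30 list members with a promoter 8 (26.7%) held the element, against 65 of the 5194 promoters past the floor and 3.67% of all promoters. All 8 were below siNT, with a median of -0.24, and so were 16 of the 22 without it, with a median of -0.13. The 8 were AARS, ATF3, CHAC1, MARS, NARS, SLC38A1, SLC3A2 and SLC7A1. A match says nothing of binding, and whether the element bears on the difference was not tested.

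Immediate early genes lay mostly below siNT. Of 27 AP-1, EGR, KLF and related genes 20 were below siNT, against 47.9% of all genes, with a median of -0.19 against siNT and -0.17 against PBS. At least 1.5-fold lower were 2, against 4.31% of all genes. The lists overlap, and PPP1R15A (-0.83) and CEBPG are on the ATF4 list as well. CYR61, a matrix protein induced by serum and YAP, had 14435 scaled counts in siNT, 13011 in PBS and 10946 in siSET, at -0.40 [-0.44 to -0.36], the AP-1 subunit FOSL1 stood at -0.37 [-0.45 to -0.30] and CEBPG, a partner of ATF4, at -0.41 [-0.63 to -0.20]. In the list of 74 MAPK cascade genes and dual-specificity phosphatases 42 were below siNT, a share not far from the 47.9% of all genes. Of these 6 were at least 1.5-fold lower (against 4.31% of all genes) and 0 members were higher by as much (against 2.84%), with a median of -0.094. After MAP4K4 the largest differences were those of RASGRP3, an exchange factor for Ras (-1.11), the JNK phosphatase DUSP8 (-0.95), RASD1 (-0.88), MKNK2, the kinase of the cap-binding factor eIF4E (-0.84), and the Ras inhibitor RASA3 (-0.70). MKNK2 had 2023 scaled counts in siNT, 1333 in PBS and 1127 in siSET, so siNT was the high control there, while RASA3 was below both controls.

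The proteins closest to SET were counted as a list of their own. Of 19 histone chaperones and assembly factors 16 were below siNT, against 47.9% of all genes, at a median of -0.17. The whole interval lay below 0 for 11, against 19.8% of all genes. Of the 19 members 17 had a mean of at least 500, where intervals are narrower. Against PBS 17 were lower, with a median of -0.30, and the median of siNT minus PBS was -0.13, so the gap to PBS was the larger one. Besides ANP32E the largest differences were those of UBN1, which with HIRA deposits the variant H3.3 (1071 scaled counts in siNT, 1117 in PBS, 1271 in siCIP2A, 1185 in OP449 and 650.0 in siSET, at -0.72 [-0.90 to -0.55]), SPTY2D1, which recycles H3 and H4 (768 scaled counts in siNT, 652 in PBS and 470.4 in siSET, at -0.71 [-0.92 to -0.50]), and SUPT16H, the large subunit of the FACT complex that opens nucleosomes for polymerases. SUPT16H had 2819 scaled counts in siNT, 3151 in PBS, 3069.7 in siCIP2A, 3085 in OP449 and 1918 in siSET, at -0.56 [-0.66 to -0.45], and was lower in siSET than in any other library. The replication-coupled factor CHAF1A (-0.35) and the centromeric histone CENPA (-0.35) were lower by less.

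The PP2A genes that could be compared did not lean to either side. Of 65 listed PP2A subunits, regulators and SET-related proteins 31 were in the table, and the others were not measured here. Of the 31, 17 were above siNT and 14 below, with a median of 0.025 against siNT and 0.02 against PBS. ANP32E is counted here too. Of the PP2A genes proper, the regulatory subunit PPP2R2D had 415 scaled counts in siNT, 375 in PBS and 251 in siSET, at -0.72 [-1.01 to -0.44], the striatin STRN had 250.1 scaled counts in siNT, 265 in PBS and 356 in siSET, at 0.51 [0.23 to 0.79], and the scaffold subunit PPP2R1B had 640.0 scaled counts in siNT, 821 in PBS and 879 in siSET, at 0.46 [0.28 to 0.64]. PPP2R2D was below both controls and STRN above both. LCMT1, which methylates the catalytic subunit, was at 0.53 [0.18 to 0.88] against siNT and level with PBS (0.0019), and the regulatory subunit PPP2R5B was at -0.39 [-0.64 to -0.15] and 0.043. Sphingolipid and ceramide enzymes were split as well, with 16 of 28 above siNT and a median of 0.064. Within it SGPL1 was higher, and SPNS2, the exporter of sphingosine-1-phosphate, was lower, with 888 scaled counts in siNT, 583 in PBS and 476 in siSET, at -0.90 [-1.10 to -0.70] against siNT and -0.29 against PBS. ORMDL3, which restrains the first enzyme of sphingolipid synthesis, had 544 scaled counts in siNT, 479 in PBS and 330.2 in siSET, at -0.72 [-0.97 to -0.47].

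Most lysosomal genes stood above both controls. Of 43 members 32 were above siNT, against 52.1% of all genes, and the median was 0.18. The whole interval lay above 0 for 23, against 19.8% of all genes. Of the 43 members 34 had a mean of at least 500, where intervals are narrower. Against PBS 34 were higher, with a median of 0.16, and the controls differed by 0.045. Most differences were below 1.5-fold, with 3 members higher by as much, against 2.84% of all genes. The cathepsin CTSF had 438 scaled counts in siNT, 504 in PBS, 650.4 in siCIP2A, 505 in OP449 and 676 in siSET, at 0.62 [0.42 to 0.83]. TPP1, a peptidase activated by acid, had 1914 scaled counts in siNT, 2071 in PBS, 3138 in siCIP2A, 2023 in OP449 and 2787 in siSET, at 0.54 [0.44 to 0.64], and LAMP1, the abundant glycoprotein of the lysosomal membrane, shown for its promoter, had 2725 scaled counts in siNT, 3337 in PBS, 3897 in siCIP2A, 3432 in OP449 and 3760.0 in siSET, at 0.46 [0.38 to 0.55]. TPP2, which the list holds though it is a cytosolic peptidase, stood at 0.58. Of the 11 members below siNT 4 had the whole interval below 0. They were CTSS, a cathepsin (-0.42 [-0.62 to -0.23]), the mannosidase MAN2B1 (-0.21 [-0.36 to -0.058]), the sorting receptor SORT1 (-0.10 [-0.19 to -0.015]) and, as the 1 member at least 1.5-fold lower, LAPTM5. LAPTM5 is a lysosomal membrane protein of blood cells, with 616 scaled counts in siNT, 597 in PBS, 214 in siCIP2A, 322 in OP449 and 226 in siSET, at -1.44 [-1.74 to -1.17]. LAPTM5 was about as low in siCIP2A. The 9 genes of the vacuolar proton pump stood nearer to all genes, at a median of 0.048, and its subunit TCIRG1 was at -0.59 [-0.74 to -0.45].

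The promoters of CTSF and LAMP1 are shown for the palindrome CACGTG, the E-box core that the lysosomal regulators TFEB and TFE3, and also MYC with MAX, can bind. The windows are from RefSeq on GRCh38.p14, chr11:66568557-66568856 on the minus strand and chr13:113296989-113297288 on the plus strand, 5′ to 3′, with each CACGTG in capitals.
CTSF: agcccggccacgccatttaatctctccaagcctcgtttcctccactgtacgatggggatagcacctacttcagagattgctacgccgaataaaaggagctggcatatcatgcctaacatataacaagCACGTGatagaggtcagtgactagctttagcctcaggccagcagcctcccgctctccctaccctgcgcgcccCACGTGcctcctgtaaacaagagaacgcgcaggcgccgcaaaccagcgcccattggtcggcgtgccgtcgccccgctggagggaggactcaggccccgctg
LAMP1: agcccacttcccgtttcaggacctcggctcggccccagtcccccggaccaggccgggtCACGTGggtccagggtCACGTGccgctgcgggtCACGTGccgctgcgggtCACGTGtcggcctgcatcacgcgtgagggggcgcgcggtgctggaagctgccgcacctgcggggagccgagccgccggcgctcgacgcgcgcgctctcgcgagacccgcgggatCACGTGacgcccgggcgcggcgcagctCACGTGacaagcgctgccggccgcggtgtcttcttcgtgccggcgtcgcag
CTSF holds 2 matches, beginning 123 and 51 bases before the start, and LAMP1 holds 6, the farthest 192 bases before it. Of 34 list members with a promoter 13 (38.2%) held the palindrome, against 10.4% of the promoters past the floor and 7.43% of all promoters. Their median was 0.21 with 11 of 13 above siNT, and that of the 21 others 0.10 with 14 above. The share describes the list, a match says nothing of binding, and whether the palindrome bears on the difference was not tested.

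Metal genes leaned upwards against both controls, while sterol and fatty acid genes did so against siNT and not against PBS. Of 33 iron, copper and zinc genes 23 were above siNT, against 52.1% of all genes, with a median of 0.11. Against PBS 20 of the 33 were higher, with a median of 0.12. FTL, the light chain of the iron store ferritin, had 29869.8 scaled counts in siNT, 30492 in PBS and 40619 in siSET, at 0.44 [0.42 to 0.47], and the zinc transporter SLC30A6 had 247 scaled counts in siNT, 232 in PBS and 376 in siSET, at 0.61 [0.33 to 0.89]. FAM96A, now named CIAO2A, which delivers iron-sulfur clusters to IRP1, went the other way, with 450.3 scaled counts in siNT, 532 in PBS, 496 in siCIP2A, 557 in OP449 and 179.6 in siSET, at -1.32 [-1.65 to -1.01]. Its 4 other libraries stood far above siSET. Of 21 sterol synthesis genes 19 were above siNT, against 52.1% of all genes, with a median of 0.38. But siNT minus PBS was -0.43 and siSET minus PBS -0.032, with 10 members above PBS. DHCR7, the last reductase of the pathway, had 1739.8 scaled counts in siNT, 2085 in PBS and 2509.5 in siSET and was above both controls. Among 55 enzymes of fatty acids, acylglycerols and phospholipids 36 were above siNT, against 52.1% of all genes, with a median of 0.084. But 26 of the 55 were above PBS, with a median of -0.048. Of the 55, 6 are also on the sterol list, SCD, FADS2 and LPIN1 among them, and 2 on the lysosomal list, LIPA among them. Without these 8 the median of the other 47 was 0.057, with 28 above siNT. In the list as a whole PLCG2 (-1.09), ACACB (-0.90) and the ethanolamine kinase ETNK1 (-0.80) were the lowest.

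Matrix and adhesion genes lay on both sides of siNT within each type. Of 34 matrix and basement membrane genes 18 were above siNT, 5 by at least 1.5-fold (2.84% of all genes) and 2 below by as much (4.31%), and the median was 0.071 against siNT and 0.21 against PBS, where 23 were higher. After MATN3 and LAMC1 the largest difference upwards was that of FBN1, the microfibril protein fibrillin-1, with 429 scaled counts in siNT, 385 in PBS, 502 in siCIP2A, 424 in OP449 and 717 in siSET, at 0.74 [0.53 to 0.95], and siSET was its highest library. The thrombospondin THBS3 was at 0.63 [-0.046 to 1.34] against siNT and 0.071 against PBS. COL1A1, a chain of type I collagen, lay between the controls, with 162 scaled counts in siNT, 73.7 in PBS and 104 in siSET. COL17A1, a collagen of hemidesmosomes, had 521 scaled counts in siNT, 362 in PBS and 269 in siSET, at -0.95 [-1.23 to -0.69], and was below both controls. Among 30 integrin and focal adhesion genes the median was 0.037. ITGB3 had 45 scaled counts in siNT, 54.4 in PBS and 109 in siSET, at 1.26 [0.68 to 1.90] from 38 and 64 reads, and the tetraspanin CD82 had 2256 scaled counts in siNT, 1983 in PBS and 1409.6 in siSET, at -0.68 [-0.80 to -0.56]. ITGB4, the partner of laminin receptors in hemidesmosomes, was at -0.28 against siNT and -0.016 against PBS. In the list of 19 immunoglobulin-type adhesion molecules and cadherins 10 were above siNT, with a median of 0.14. DSG2, a desmosomal cadherin (0.41 [0.32 to 0.50]), and PVRL1 (0.73 [0.40 to 1.06]) were higher, and ICAM1, EPCAM (-0.57 [-0.91 to -0.24]) and CD44, the hyaluronan receptor (-0.43 [-0.47 to -0.39]), lower.

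The medians of the protease and membrane repair lists lay below siNT but above PBS. Of 22 secreted and membrane proteases and inhibitors 12 were below siNT, not far from the 47.9% of all genes, with a median of -0.13. The whole interval lay below 0 for 10 and above 0 for 8, against 19.8% of all genes each way. Of the 22 members 14 had a mean of at least 500, where intervals are narrower. Over all 22 members siSET was above PBS by a median of 0.11 and siNT by 0.23. ADAM8 had 4221 scaled counts in siNT, 3071 in PBS and 2693 in siSET, at -0.65 [-0.74 to -0.56], PLAU, the urokinase, 9249.9 in siNT, 6973 in PBS and 6560.3 in siSET, at -0.50 [-0.55 to -0.44], and ST14 122 in siNT, 72.5 in PBS and 65 in siSET, so that siSET lay closer to PBS than to siNT for each. ADAM17, the sheddase of tumour necrosis factor, had 653 scaled counts in siNT, 688 in PBS and 949 in siSET, at 0.54 [0.37 to 0.71], and was above both controls. In the list of 13 complement and coagulation genes the complement serine proteases C1S (88.9 scaled counts in siNT, 58.9 in PBS and 142 in siSET) and C1R (184 scaled counts in siNT, 131 in PBS and 245 in siSET) were above both controls and the complement regulator CD46 (2595 scaled counts in siNT, 2967 in PBS and 1921 in siSET) below both. F3, the tissue factor, had 10062 scaled counts in siNT, 6737 in PBS and 7686 in siSET. The median of this list was 0.053. Of 26 membrane repair and shaping genes 16 were below siNT, against 47.9% of all genes, with a median of -0.14, but 17 were above PBS. Besides MYOF, CHMP4A of the ESCRT-III complex (-0.69 [-1.02 to -0.38]) and the endocytic ATPase EHD4 (-0.50 [-0.64 to -0.37]) were below both controls, while DYSF, the ferlin dysferlin, had 251 scaled counts in siNT, 269.8 in PBS and 385 in siSET, at 0.61 [0.34 to 0.89], above both. 10 of 13 annexin and S100 genes were above siNT, against 52.1% of all genes, none past 1.5-fold, with a median of 0.13. S100A2 was the lowest at -0.41 [-0.58 to -0.24].

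Signalling lists held members on both sides of siNT. Of 22 TGF-beta and activin genes 14 were below siNT, against 47.9% of all genes, with a median of -0.12. But 11 were above and 11 below PBS, with a median of -0.021, and siNT minus PBS was 0.10. SMAD3, which carries the TGF-beta signal to the nucleus, had 4069 scaled counts in siNT, 3383 in PBS and 2988 in siSET, at -0.44 [-0.53 to -0.36]. Among 15 BMP genes the median was 0.086 against siNT and 0.014 against PBS, but 33.3% of the members lay past 1.5-fold, 3 above siNT (2.84% of all genes) and 2 below it (4.31% of all genes). ID3, a repressor that BMP signals induce, had the highest difference of all 6084 genes, with 93.6 scaled counts in siNT, 244 in PBS, 68.5 in siCIP2A, 184 in OP449 and 339 in siSET, at 1.84 [1.47 to 2.25] against siNT and 0.47 against PBS, and siNT was well below PBS. The factor ATOH8 had 24.9 scaled counts in siNT, 121 in PBS and 75.3 in siSET, at 1.56 [0.82 to 2.42] against siNT and -0.68 against PBS. The antagonist NOG stood at -1.58, and the pseudoreceptor BAMBI had 67.6 scaled counts in siNT, 56.7 in PBS and 115 in siSET, at 0.75 [0.23 to 1.30]. Of 17 guidance genes 12 were below siNT, against 47.9% of all genes, with a median of -0.19. Over the same 17 genes the median was 0.065 against PBS, and it was -0.0057 over the guidance genes that pass the floor on the mean of siSET and PBS. The receptor ROBO4 (-0.92) and the netrin NTN4 (-0.91) were the lowest of them and below both controls. LTBP1, which tethers latent TGF-beta to matrix fibrils, was above both, with 282 scaled counts in siNT, 272 in PBS and 433 in siSET, at 0.62 [0.36 to 0.88]. Among 58 G protein genes 8 were at least 1.5-fold lower (4.31% of all genes were) and 5 higher (2.84% of all genes), with a median of 0.0053. RGS4, which shuts off G-alpha subunits, had 181 scaled counts in siNT, 190.4 in PBS, 293 in siCIP2A, 201 in OP449 and 388 in siSET, at 1.09 [0.80 to 1.40], and stood above every other library. The nucleotide receptor P2RY2 (188 scaled counts in siNT, 190.4 in PBS and 94.1 in siSET, at -0.99 [-1.47 to -0.55]) and ARRB2, the arrestin that uncouples receptors (584 scaled counts in siNT, 439.8 in PBS and 286 in siSET, at -1.03 [-1.29 to -0.78]), were below both controls. Of 45 ion channel genes 28 were below siNT, against 47.9% of all genes, 7 by at least 1.5-fold, against 4.31%, with a median of -0.085 against siNT and 0.018 against PBS. The chloride channel TTYH2 (-0.73 [-1.07 to -0.40]) was below both controls, and ACCN2, the acid-sensing channel ASIC1, was above both controls (59.3 scaled counts in siNT, 81.6 in PBS and 174 in siSET).

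Factor families and states of the line were split in the same way. In the hypoxia list of 29 genes the median was 0.041. HIF1A and EPAS1, which encodes HIF-2-alpha (711 scaled counts in siNT, 807 in PBS and 968 in siSET, at 0.44 [0.28 to 0.61]), were above both controls, and their common partner ARNT was below both (636 scaled counts in siNT, 549.8 in PBS and 347 in siSET, at -0.87 [-1.11 to -0.64]). Among 39 ETS, FOX, SOX, GATA and homeobox factors 24 were above siNT, against 52.1% of all genes, with a median of 0.073. FOXO1 was at 0.70 [0.27 to 1.14] and HOXB9 at -0.73 [-1.05 to -0.41]. For 12 epithelial-mesenchymal regulators the median was 0.048. EHF, an ETS factor of epithelia, had 3306 scaled counts in siNT, 2943 in PBS and 2140.0 in siSET, at -0.63 [-0.73 to -0.53], the repressor gene ZEB2 stood at 0.47 [-0.021 to 0.96] and ESRP2, a splicing factor of epithelia, at -0.37 [-0.70 to -0.045]. Tight junction and polarity genes had a median of -0.043, with CLDN7 at -0.50 [-0.85 to -0.17] and INADL, now named PATJ, at -0.61 [-0.92 to -0.31]. The epithelial markers summed to 21728 scaled counts in PBS. Single members lay on both sides of siNT, with KRT8 at 0.48 [0.40 to 0.55], EPCAM at -0.57 [-0.91 to -0.24], and TRIM29 (879 scaled counts in siNT, 383 in PBS and 455 in siSET) and MUC1 (156 scaled counts in siNT, 89.6 in PBS and 90.7 in siSET) nearer to PBS than to siNT.

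**Figure D5:**
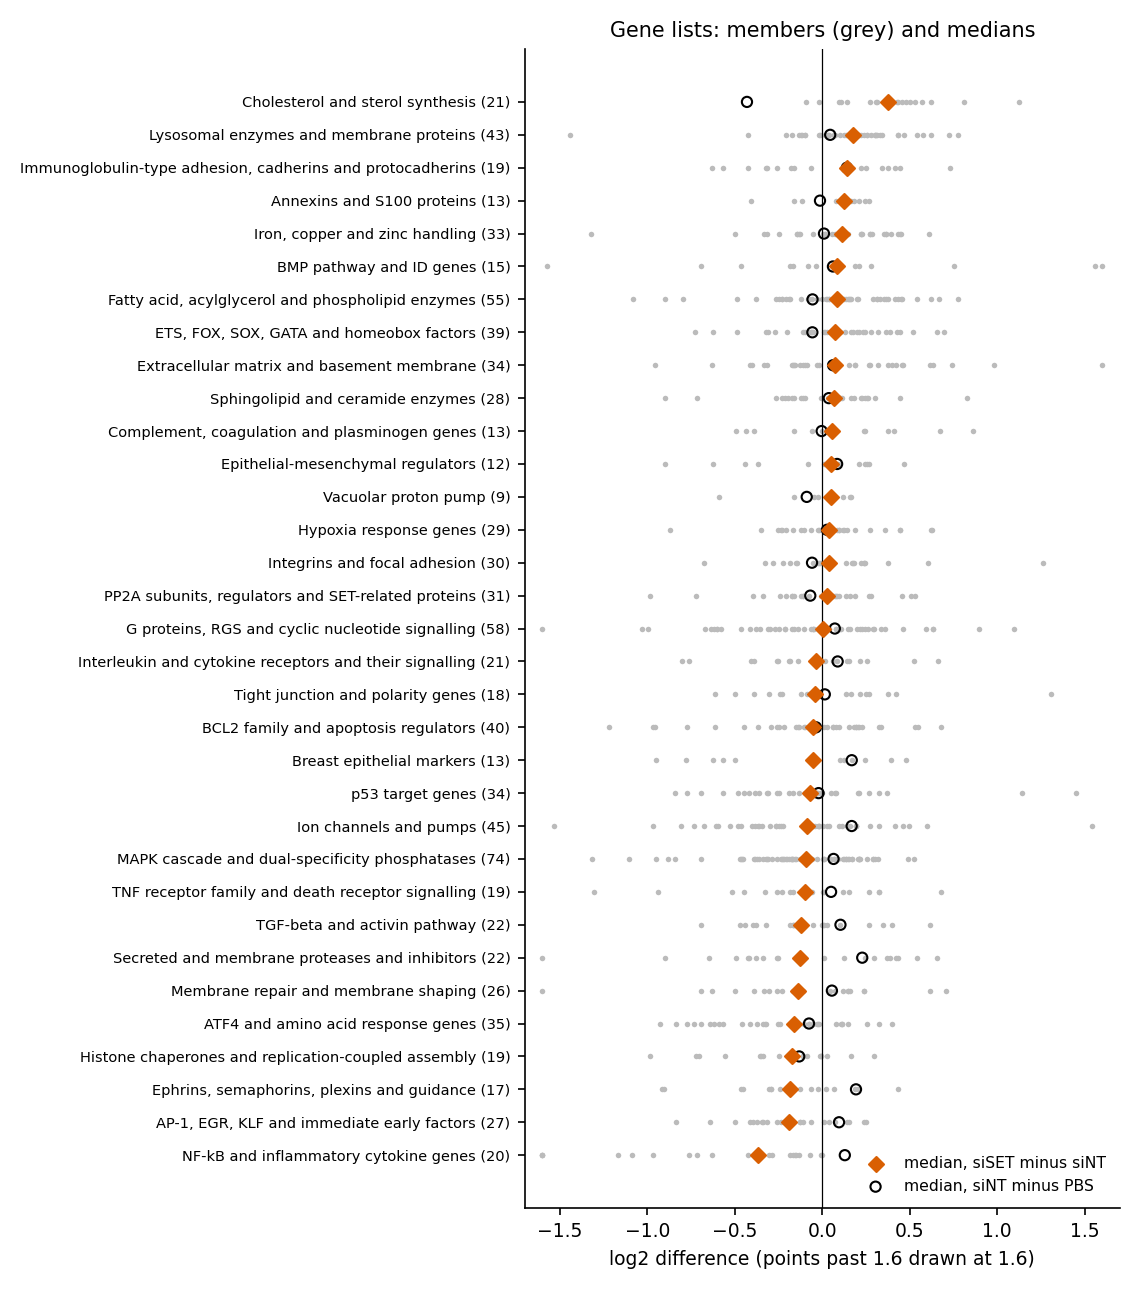
Differences between siSET and siNT (x axis, log2) for the members of 33 of the 34 lists that met the rule for description (grey points, number of members in brackets), with the list's median (orange diamonds) and the median of siNT minus PBS (open circles). The NF-kB list lies lowest, at -0.37, and the sterol list highest, at 0.38, where the controls differ by -0.43.

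Of the 87 lists 34 met the rule for description, and in 11 of the 34 the medians against siNT and against PBS, over the same members, had opposite signs. The others held fewer than 8 members, or had a median within 0.1 of that of all genes and fewer than 10% of members past 1.5-fold. They include cell cycle lists. Of 84 mitosis genes 52 were above siNT, with a median of 0.06, and of 59 replication genes 30 were, at 0.023. Against PBS the median of the mitosis genes was -0.26 in siSET and -0.29 in siNT. The 45 ribosomal protein genes had a median of 0.044, and the 33 proteasome genes 0.036. Zinc finger genes of chromosome 19 came just short of that distance. Of 156 such genes 105 were above siNT, against 52.1% of all genes, with a median of 0.11. By at least 1.5-fold 9 were higher (2.84% of all genes) and 1 lower (4.31%). The whole interval lay above 0 for 22 and below 0 for 5, against 19.8% of all genes each way. Most were thinly counted, with 7 at a mean of at least 500. Many of these zinc finger genes are relatives of one another, and reads they share may have been divided or repeated. The same holds for other genes with close relatives or processed copies named above, such as RPS27L, FTL and KRT8.

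By chromosome, the median difference ran from -0.022 on chromosome 19 (758 genes) to 0.046 on chromosome 10 (423 genes). By transcript length, the median was 0.027 in the shortest 25% of genes (up to 2011 bases) and 0.0055 in the longest (4810 bases or more), and siNT minus PBS ran from -0.042 to 0.059 over the same length classes. Genes at least 1.5-fold lower numbered 47, 60, 67 and 74 from the shortest class to the longest, and genes at least 1.5-fold higher 27, 41, 56 and 41. Neighbouring genes past the floor that both differed by 1.5-fold in the same direction formed 18 pairs. Of all genes 2.84% were higher and 4.31% lower by as much. How many such pairs unrelated placement would give was not worked out, so the count is no sign of clustering. Of the pairs 3 are named here after their values were seen. In GLYR1 and UBN1, 608 bases apart on chromosome 16, GLYR1, a nucleosome-binding oxidoreductase homolog, was at -0.82 [-0.997 to -0.64]. In IL24 and FAIM3, a receptor for IgM, the transcripts overlap, and as it is not known whether strand was used in counting, the -1.22 of FAIM3 may include reads of IL24. EIF3C and EIF3CL, which are nearly identical, shared 1 value (-0.60).

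Among the promoters of the deeply counted lower genes, 6 of 65 (9.23%) held the NF-kB consensus, against 6.51% of all genes past the floor, and 0 of 28 promoters of the higher genes did. The TATA motif (TATAAA) was in 5 of the 65 (7.69%) against 4.16%, and CACGTG in 5 (7.69%) against 10.4%. These shares rest on few promoters and are given as descriptions.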

How the data were processed

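Total RNA of MDA-MB-231 cells was sequenced from oligo-dT primed libraries on an Illumina GAII, 1 library for each of 5 groups. The deposited table holds, per transcript, a scaled count, a signal that the authors made from read counts; the submitters' processing notes name hg19, CASAVA and Bowtie 1.0.0, without the role of each. The counting program, any use of strand and the way the libraries were scaled were not found in the sources used here. In each column 100% of values were whole multiples of 1 read within a tolerance of 0.001, so reads were recovered, 1 read being worth 1.19 scaled counts in siNT and 1.71 in siSET. A count of 0 allows up to 3 reads, 3.56 scaled counts in siNT and 5.13 in siSET.

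Of 16383 transcript rows 1 was kept per symbol, by the highest mean over the 5 libraries. Symbols that had turned into dates were restored from the transcript accession in 14 rows, and no column of values lacked a sample. Differences were taken on log2(value + 1), with a floor of 50 on the mean of siSET and siNT, and with 500 and 2000 as floors for deeply counted genes. Exact Clopper-Pearson intervals at 95% came from the recovered reads, and the calculation was tested on simulated data. Intervals cover counting error only, since the reads carry no molecular identifiers. Tested as 2 binomial counts by an exact test, which compares these libraries and not the conditions, the recovered reads gave 1801 genes at a Benjamini-Hochberg adjusted 0.05, 872 higher and 929 lower.

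Named genes are the 15 highest and 15 lowest with a mean of at least 500, the 10 with at least 2000, the 5 with at least 50, and up to 6 members with the largest differences in each described list. Some of these are left out for length, some genes and 1 list are not reported here, and the text says where other genes are named. A list was described where it had at least 8 members and a median at least 0.1 from that of all genes, or at least 10% of members past 1.5-fold, and for the PP2A, sphingolipid and histone chaperone lists in any case. The genes and lists were chosen with earlier results of these data known. Promoters are RefSeq windows on GRCh38.p14, matched by symbol. Alternatives changed the floors, pseudocount, fold, scaling, control library, transcript choice, summary and length or GC trend. Python 3.11.15 with numpy 2.4.6, pandas 2.3.3, scipy 1.17.1, statsmodels 0.14.6 and matplotlib 3.10.9 was used.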

Additional observations from a re-analysis of the deposited data

How the results depend on the processing

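With 1 library per group the spread between cultures is unknown, and nothing here separates the siRNA from differences between single libraries. The siSET library is the shallowest, so genes near the floor carry the widest counting intervals. No paired analysis was possible because each group has 1 library and the results come from no test. The counts of 24 higher and 48 lower genes at 2-fold, and of 32 higher and 83 lower deeply counted genes at 1.5-fold, stayed within 1.5 times of these under a pseudocount of 10, the demand that the counting interval exclude equality, 3 other scalings, another choice of transcript, removal of the trend in length and GC content, and the exact binomial test. With floors of 20 and 250 there were 47 higher genes at 2-fold, and 60 higher and 137 lower deeply counted genes. With floors of 200 and 1000 the 4 counts were 10, 22, 15 and 36. Without a floor there were 411 higher and 543 lower genes at 2-fold. With lower fold thresholds the counts were 173, 262, 209 and 293. When every transcript row was counted there were 45 higher genes at 2-fold, and 68 higher and 128 lower deeply counted rows. With PBS in place of siNT 23 genes were 2-fold lower and 18 deeply counted genes 1.5-fold higher. With that control the floor falls on the mean of siSET and PBS, so the members of a list can differ from those above. It also turned the list medians of proteases (0.073), membrane repair (0.046) and sterol synthesis (-0.032), and SCD (-0.12), and gave -0.30 for histone chaperones and 0.19 for breast epithelial markers. A floor of 200 turned the median of immunoglobulin-type adhesion genes (-0.019), and the mean in place of the median put NF-kB genes at -0.71. Of the list values under the alternatives, 367 stayed between the medians of the lower and of the upper counting bounds of the list's members, a wide range for lists of thinly counted genes, and 18 of these had the other sign, 6 of them with PBS in place of siNT. Beyond that, 3 moved outside the range and 4 lists with a median at least 0.1 from that of all genes changed sign. Guidance genes were at -0.0057 with PBS, ion channels at -0.26 without a floor and matrix genes at -0.022 without a floor. The median over all genes ran from 0.00036 to 0.027 over these settings. The cause of these movements was not tested, apart from the floors, folds and rows, which change how many genes are counted.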
